A study of Mus musculus with 13 samples.

Results

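Mrc2, Mmp2, Mmp14 and Lrp1 were followed as a small group of genes that act on collagen outside the cell, 4 of the 23211 genes in the count matrix. Mrc2 was selected on its measured difference between fibrous and bone libraries in these same data, and the other 3 genes were added as its known partners with their values in view. The difference between fibrous and bone tissue is therefore given for these genes as a description, over all 13 libraries and within each series of library names, and no test is read from it.

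Cells were sorted by flow cytometry from tissue around implants in the tibia of mice, and their polyA RNA was sequenced. The labels name the sorted cells LepR+ (carrying the leptin receptor) and lineage-negative. Fibrous tissue around implants labelled PMMA gave 7 libraries, and bone around implants labelled Pressfit gave 6. The sources used here do not give strain, sex, age, time after surgery or the number of animals. A p-value below therefore speaks of the spread among libraries, whose origin may be technical. Library names form 2 series: XY9274, with 2 fibrous and 2 bone libraries, and L002, with 5 fibrous and 4 bone libraries. In the L002 series, 3 names hold the word Lin (fibrous 5, bone 3 and bone 4) and 6 do not. Of those 6, bone 1, bone 2 and fibrous 2, 3 and 4 have plus in the name, after LepR except in bone 1. Fibrous 1 has neither word. Names in the XY9274 series hold Lepr.Pos. What these words mean is not stated. All 13 libraries carry the same label for the sorted cells, whatever the name. Implant and tissue change together, so the effects of the implant and of the tissue cannot be told apart.

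Total counts were between 18056208 and 44302166 in fibrous libraries and between 16162321 and 43217004 in bone libraries, with 14644 to 20146 genes detected. Lepr, the gene of the sort marker, was under 5 normalised CPM (counts scaled to the library size) in 5 libraries: fibrous 1 and 5, and bone 3, 4 and 5, at 0.469 to 2.42 CPM. It was between 46.7 and 804 CPM in the other 8. A list of 7 marrow stromal markers summed to 20.9 to 10634 CPM in fibrous libraries (median 635) and 14.0 to 1382 CPM in bone libraries (median 397). A list of 7 erythroid markers summed to 8544 to 235544 CPM in fibrous libraries and 1819 to 593546 CPM in bone libraries, and was highest in the 3 Lin-named libraries, at 235544 CPM or more. By this cut on RNA, the labelled cell type was thus not shown by its defining gene in 5 of the 13 libraries. Of these, bone 5 had 2.42 CPM and the rest at most 0.739 CPM. Members' log2 fold changes are given below with and without the 5 libraries.

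Collagen is removed from tissue by cutting at the cell surface followed by uptake. Mmp14 encodes a membrane-anchored metalloproteinase that cuts fibrillar collagen and, together with the inhibitor encoded by Timp2, activates the secreted gelatinase encoded by Mmp2, which cuts denatured collagen. Mrc2 encodes an endocytic receptor of the mannose receptor family (Endo180, also called uPARAP for its association with the urokinase receptor), which binds collagen fragments and carries them to lysosomes in mesenchymal cells. Lrp1 encodes a large endocytic receptor of the LDL receptor family, which clears proteases and their complexes with inhibitors from the cell surface and the matrix.

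In the GENCODE M21 annotation of mm10, Mrc2 (ENSMUSG00000020695) lies on chromosome 11 at 105292643 to 105351139, on the plus strand, with 30 merged exons of 6674 bases. Mmp14 (ENSMUSG00000000957) lies on chromosome 14 at 54431612 to 54445364, on the plus strand, with 11 merged exons of 5960 bases. Mmp2 (ENSMUSG00000031740) lies on chromosome 8 at 92827291 to 92853420, on the plus strand, with 14 merged exons of 3371 bases. Lrp1 (ENSMUSG00000040249) lies on chromosome 10 at 127538161 to 127621148, on the minus strand, with 88 merged exons of 17717 bases. The counts are for whole genes. The one annotated overlap was that of Lrp1 with the antisense gene Gm16217, with 0 exon bases shared.

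Mrc2 was almost unread in the bone libraries of the L002 series and was read in every other library. It had 148, 1777, 1222, 670, 114, 1944 and 3017 reads in fibrous libraries 1 to 7, against 1, 3, 0, 2, 256 and 367 reads in bone libraries 1 to 6. The 4 bone libraries with 0 to 3 reads were all those of the L002 series, Lin-named or not, and the 2 with 256 and 367 reads were those of the XY9274 series. On the scale of normalised CPM, Mrc2 stood at 5.78, 55.1, 44.9, 27.2, 7.02, 36.9 and 56.7 in fibrous libraries, against 0.0394, 0.12, 0, 0.201, 5.49 and 11.2 in bone libraries. Fibrous 1 and fibrous 5 were the lowest of their group, and bone 6 was above both, so the groups overlapped over all 13 libraries. Within the XY9274 series, and within the L002 series, every fibrous library was above every bone library.

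Mrc2 averaged 33.4 ± 21.0 CPM in fibrous libraries (SD, n = 7) and 2.85 ± 4.64 CPM in bone libraries (SD, n = 6). In the XY9274 series it averaged 46.8 ± 14.0 CPM in fibrous libraries and 8.36 ± 4.06 CPM in bone libraries (SD, n = 2 each). In the L002 series it averaged 28.0 ± 22.1 CPM in fibrous libraries (SD, n = 5) and 0.0911 ± 0.0896 CPM in bone libraries (SD, n = 4). In bone 3, with 0 reads, a count of 0 allows up to 3 reads, or 0.193 CPM, counting error only. The log2 fold change, fibrous minus bone, was 6.46 (SE 1.37) with the name series as a term, 2.42 (SE 0.55) in the XY9274 series alone and 8.25 (SE 1.23) in the L002 series alone. The L002 value rests on 6 bone reads in all and moves with the prior count used in fitting. The reads themselves are the firmer description. Without the 5 libraries low in Lepr the value was 5.33, and without the 3 Lin-named libraries it was 5.29.

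**Figure D1:**
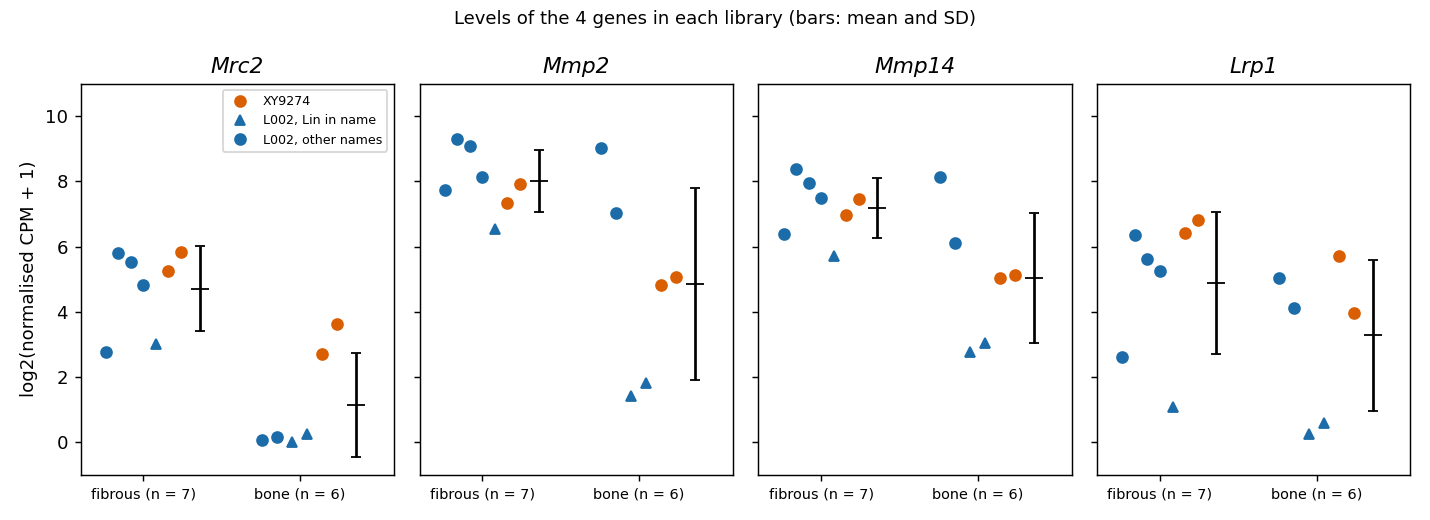
Levels of Mrc2, Mmp2, Mmp14 and Lrp1 as log2(normalised CPM + 1), with one point per library, fibrous libraries (n = 7) left of bone libraries (n = 6), colours for the name series and triangles for the Lin-named libraries. Black marks are the mean and SD on that scale; Mrc2 sits near 0 in all 4 L002 bone libraries, whereas Mmp2 and Mmp14 reach the fibrous range in bone 1.

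Mmp14, the surface protease, did not share that near absence. It stood at 83.1, 333, 247, 180.1, 51.2, 124 and 175 CPM in fibrous libraries 1 to 7, against 282, 68.4, 5.86, 7.32, 31.9 and 34.4 CPM in bone libraries 1 to 6. Bone 1 was the second highest of all 13 libraries, and the Lin-named bone libraries were the lowest. The groups overlapped in the L002 series, and did not overlap in the XY9274 series. Mmp14 averaged 170.5 ± 96.9 CPM in fibrous libraries (SD, n = 7) and 71.7 ± 106 CPM in bone libraries (SD, n = 6). The log2 fold change was 1.34 (SE 0.80) over all libraries, 2.11 (SE 0.33) in XY9274 alone and 0.94 (SE 1.05) in L002 alone. Without bone 1 it was 2.52, and without the libraries low in Lepr it was 1.04.

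Mmp2, the gelatinase that Mmp14 activates, followed Mmp14 from library to library. It stood at 211, 624, 542, 282, 92.6, 159 and 241 CPM in fibrous libraries 1 to 7, against 522, 129, 1.68, 2.51, 27.4 and 32.9 CPM in bone libraries 1 to 6. As for Mmp14, bone 1 lay among the fibrous libraries, bone 3 and bone 4 were lowest, and the groups were apart in the XY9274 series and overlapped in the L002 series. Mmp2 averaged 307 ± 199 CPM in fibrous libraries (SD, n = 7) and 119 ± 203 CPM in bone libraries (SD, n = 6). The log2 fold change was 1.58 (SE 1.03) over all libraries, 2.66 (SE 0.37) in XY9274 alone and 1.07 (SE 1.33) in L002 alone. Without bone 1 it was 2.89, and without the libraries low in Lepr it was 1.19.

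Lrp1, the clearance receptor, was low in every library with Lin in its name. It stood at 5.12, 81.0, 48.7, 36.9, 1.11, 83.8 and 113 CPM in fibrous libraries 1 to 7, against 32.2, 16.2, 0.193, 0.502, 51.0 and 14.7 CPM in bone libraries 1 to 6. The 3 Lin-named libraries were the lowest, one fibrous and both bone, and fibrous 1 came next. The groups overlapped in the L002 series and not in the XY9274 series. Lrp1 averaged 52.7 ± 41.9 CPM in fibrous libraries (SD, n = 7) and 19.1 ± 19.6 CPM in bone libraries (SD, n = 6). The log2 fold change was 1.52 (SE 1.06) over all libraries, 1.50 (SE 0.71) in XY9274 alone and 1.46 (SE 1.45) in L002 alone. Without the libraries low in Lepr it was 1.70.

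Promoter sequence was at hand for Mmp14 and Lrp1 in the RefSeq table of build GRCm38.p6, which matched 2 of the 4 genes. Both windows run from 250 bases before the transcript start to 50 after it, and are printed because both genes were high and low in different libraries of the same group. Capitals mark 3 motifs searched on both strands: the GC box (GGGCGG or CCGCCC), the CCAAT box (CCAAT or ATTGG) and the RUNX site (TGTGGT or ACCACA). The first is chr14:54431348-54431647 on the plus strand and the second is chr10:127621099-127621398 on the minus strand.
Mmp14: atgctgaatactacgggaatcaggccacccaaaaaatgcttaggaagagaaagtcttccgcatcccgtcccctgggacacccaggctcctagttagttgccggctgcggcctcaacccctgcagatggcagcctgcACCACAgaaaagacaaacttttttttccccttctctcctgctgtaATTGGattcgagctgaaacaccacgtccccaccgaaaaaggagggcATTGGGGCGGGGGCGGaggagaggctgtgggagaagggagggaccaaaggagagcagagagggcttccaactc
Lrp1: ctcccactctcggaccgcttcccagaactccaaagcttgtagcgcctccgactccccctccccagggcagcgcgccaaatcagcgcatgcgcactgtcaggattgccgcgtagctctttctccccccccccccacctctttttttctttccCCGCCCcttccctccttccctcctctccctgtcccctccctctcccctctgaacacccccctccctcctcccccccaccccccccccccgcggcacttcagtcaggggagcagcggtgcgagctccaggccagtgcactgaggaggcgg
The Mmp14 window held 2 GC boxes, 2 CCAAT boxes and 1 RUNX site, with one CCAAT box overlapping a GC box in the last run of capitals. The Lrp1 window held 1 GC box and 0 of the other 2 motifs. The same letters were found in 35.7% (GC box), 37.4% (CCAAT box) and 16.8% (RUNX site) of 32851 promoter windows of the same length. The TATA box (TATAAA or TTTATA) and the AP-1 site (TGACTCA or TGAGTCA) were in neither window, and in 13.6% and 5.20% of all windows. GC content was 56.0% for Mmp14 and 67.7% for Lrp1, against a median of 52.7% over all windows. These matches describe letters and show no binding.

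Compared per kilobase of merged exons, Mmp2 and Mmp14 were the most abundant of the 4 genes in every library. The order from high to low was Mmp2, Mmp14, Mrc2, Lrp1 in 8 libraries, namely all 7 fibrous libraries and bone 6. In bone 1, 2, 3 and 5 Lrp1 came before Mrc2. In the Lin-named bone libraries Mmp14 came before Mmp2. Levels of Mmp2 had a median of 71.4 CPM per kilobase in fibrous libraries (27.5 to 185) and 8.94 in bone libraries (0.497 to 155). Levels of Mmp14 had a median of 29.4 CPM per kilobase in fibrous libraries (8.59 to 55.9) and 5.56 in bone libraries (0.984 to 47.3). Levels of Mrc2 had a median of 5.53 CPM per kilobase in fibrous libraries (0.866 to 8.50) and 0.0243 in bone libraries (0 to 1.68), and levels of Lrp1 had a median of 2.75 in fibrous libraries (0.0625 to 6.35) and 0.873 in bone libraries (0.0109 to 2.88). Over the fibrous libraries the ranges of Mmp2 and Mmp14 overlapped, as did those of Mrc2 and Lrp1, while those of Mmp14 and Mrc2 did not. Over the bone libraries the ranges of all neighbouring genes in this order overlapped.

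Set against Mmp14 in the same library, Mrc2 was lowest in the L002 bone libraries, though the interval of bone 4 took in the value of fibrous 1. Fibrous libraries 1 to 7 had 6.95, 16.5, 18.2, 15.1, 13.7, 29.7 and 32.4 Mrc2 reads per 100 Mmp14 reads. Bone libraries 1 to 6 had 0.0140, 0.182, 0, 2.74, 17.2 and 32.7. Of the bone libraries of the XY9274 series, bone 5 lay within the fibrous range (exact 95% interval 15.0 to 19.7) and bone 6 at its upper end (28.9 to 36.8). Bone 1 read 7158 times for Mmp14 and 1 time for Mrc2, with an interval of 0.000354 to 0.0779 per 100. Bone 3 and bone 4 had few reads of either gene (91 and 73 for Mmp14), and their intervals reached 4.14 and 10.3, so depth limits that ratio there. Intervals cover counting error only, since reads without molecular identifiers are not independent molecules.

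Bone 1 also held 21965 CPM of Col1a1, the main chain of bone collagen, more than 5 of the 7 fibrous libraries. Mrc2 was thus near 0 in a library with abundant collagen transcripts. In bone 1 the chondrocyte list summed to 37604 CPM, the osteoblast list to 9637 CPM and the marrow stromal list to 765 CPM. The medians of these lists in fibrous libraries were 12683, 5845 and 635 CPM. In bulk RNA, fewer expressing cells and less Mrc2 RNA per cell cannot be told apart, for Mrc2 or for any gene below. Low counts of single genes were more common in fibrous 1 and 5 and bone 1 to 4, all of the L002 series, than in the other libraries. Such counts are raw reads, and depth differed. Total counts were 16162321 to 29600792 in L002 libraries and 30286397 to 44302166 in XY9274 libraries. Of 9803 tested genes with a mean of at least 5 CPM, 472, 55, 140, 82, 515, 20 and 10 had at most 3 reads in fibrous libraries 1 to 7, and 530, 326, 859, 940, 42 and 138 in bone libraries 1 to 6. Their part in the Mrc2 result was not tested. With thresholds chosen after the values were seen, 2 of 13294 tested genes had at most 3 reads in each L002 bone library and at least 100 in each L002 fibrous library: Mrc2 and Ticam1, which encodes an adaptor of Toll-like receptors. The reverse pattern was found in 0 genes, but it asks for at least 100 reads in bone 3 and bone 4, where low counts were most common. Mrc2 meets the first pattern by thresholds chosen with its reads in view, so nothing is read from either count.

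**Figure D2:**
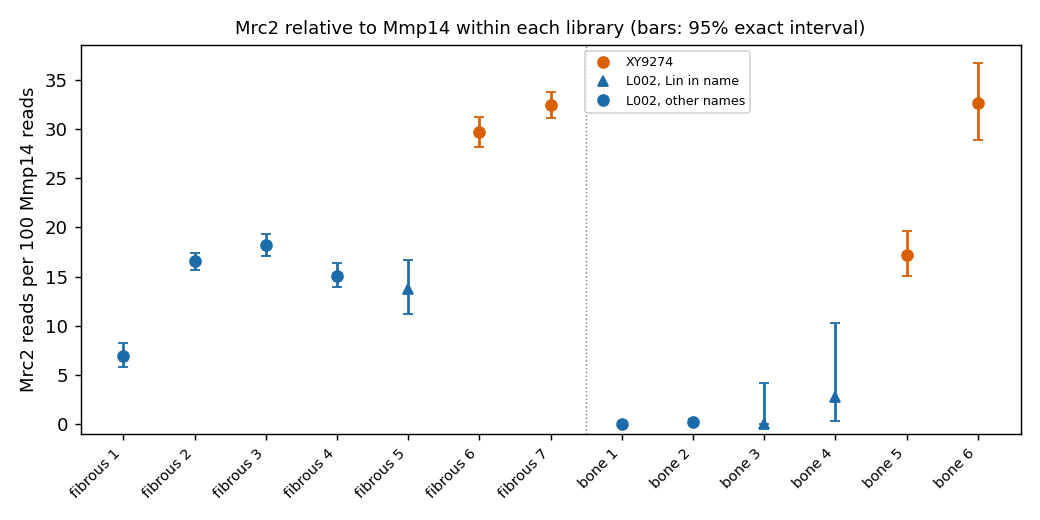
Mrc2 reads per 100 Mmp14 reads in each library on a linear axis, fibrous libraries left of the dotted line and bone libraries right of it, with exact 95% intervals for counting error. Bone 5 and bone 6 lie at 17.2 and 32.7, within the fibrous range of 6.95 to 32.4 or just above it, and bone 1 to bone 4 lie between 0 and 2.74.

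Over all genes, edgeR's quasi-likelihood test with Benjamini-Hochberg adjustment called 0 of 13294 genes between fibrous and bone libraries (0%), with 636 at an unadjusted p under 0.05. DESeq2 called 169 of 12993 (1.3%), and limma with voom called 0. Of the 4 genes, 0 were among the edgeR calls and 1, Mrc2, was among the DESeq2 calls. Every fibrous library was above every bone library within both series for 27 of 13294 genes (0.203%), Mrc2 among them. In the XY9274 series alone this held for 17.5% of genes, all 4 members included, and in the L002 series alone for 1.5%, with Mrc2 the one member included. Since these differences chose the genes, nothing is read from the counts.

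The size of the Mrc2 difference was not the same in the name series. The interaction of series and group, XY9274 minus L002, was -5.83 (SE 1.55) for Mrc2 on the log2 scale. For Mrc2 the L002 side rests on 6 bone reads in all. The interaction was 1.64 (SE 2.17) for Mmp2, 1.20 (SE 1.71) for Mmp14 and 0.09 (SE 2.31) for Lrp1, each smaller than its SE. Since the differences between fibrous and bone libraries chose the genes, the interaction is given as a description. By edgeR 0 of 13294 genes were called for this interaction (0%), with 292 at an unadjusted p under 0.05, and by DESeq2 25 of 13003 (0.192%).

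The name series themselves were compared across both tissues. Mrc2 averaged 27.6 ± 23.7 CPM in XY9274 libraries (SD, n = 4) and 15.6 ± 21.5 CPM in L002 libraries (SD, n = 9), with a log2 fold change of 4.24 (SE 1.31) with tissue as a term. That value rests on the bone libraries, at 5.49 and 11.2 CPM in XY9274 and at most 0.201 CPM in L002, and the same L002 reads chose Mrc2, so it is a description with no test. The log2 fold changes of the other members were -1.51 for Mmp2, -0.79 for Mmp14 and 1.46 for Lrp1, with edgeR adjusted p-values of 0.466, 0.627 and 0.432. None of these 3 passed by edgeR, which called 287 of 13294 genes (2.16%). DESeq2 called 1982 of 12489 (15.9%).

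Lin-named libraries were compared with the other L002 libraries, with tissue as a term, because the names differ. The rule that chose the members did not use this contrast. Earlier results had, however, shown stromal genes low in the Lin-named libraries, so the p-values here are not independent of what was already seen. Lrp1 was 1.11, 0.193 and 0.502 CPM in fibrous 5, bone 3 and bone 4, against 5.12 to 81.0 CPM in the other 6 libraries (median 34.5). Lrp1 fell by 5.68 on the log2 scale (SE 1.01, edgeR adjusted p = 0.0401). Mmp14 was 51.2, 5.86 and 7.32 CPM in the Lin-named libraries, against 68.4 to 333 CPM (median 213), with a log2 fold change of -3.29 (SE 0.80, edgeR adjusted p = 0.0558). Mmp2 was 92.6, 1.68 and 2.51 CPM in the Lin-named libraries, against 129 to 624 CPM (median 402), with a log2 fold change of -4.15 (SE 1.23, edgeR adjusted p = 0.0825). Neither protease passed the threshold of 0.05 by edgeR, so that 1 of the 4 members was called, beside 3.86% of all tested genes.

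For Mrc2 this contrast is limited by the L002 bone libraries, which had 0 to 3 reads whatever their name and so left no room for a lower value in the Lin-named ones. It was 7.02, 0 and 0.201 CPM in fibrous 5, bone 3 and bone 4, against 0.0394 to 55.1 CPM in the other L002 libraries (median 16.5), and the name groups overlapped. The log2 fold change was -1.26 (SE 1.29, edgeR adjusted p = 0.581), and it was 0.15 without fibrous 5, where it rests on those bone reads alone. Whether Mrc2 differed from the other members on this contrast was not tested. Over all genes edgeR called 493 of 12761, 179 higher and 314 lower, and the median log2 fold change of all tested genes was -0.13. DESeq2 called 2999 of 12669 (23.7%), including Lrp1, Mmp14 (adjusted p = 3.67e-05) and Mmp2 (adjusted p = 7.16e-05) but not Mrc2 (adjusted p = 0.413).

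The Lrp1 call was lost without bone 1, 2, 3 or 4 or without fibrous 2, 3 or 4, with edgeR adjusted p-values of 0.0656 to 0.126, while its log2 fold change stayed between -6.11 and -5.36 over the 9 libraries left out in turn. Cell type markers moved with this contrast. The marrow stromal list summed to 14.0 to 20.9 CPM in the Lin-named libraries, against 40.4 to 10634 CPM in the other L002 libraries, with all 6 tested markers lower and 1 called (Cxcl12). The chondrocyte list summed to 283 to 1736 CPM in the Lin-named libraries and 7461 to 37604 CPM in the others, with all 5 markers lower and 4 called (Sox9, Col2a1, Acan and Comp). The osteoblast list summed to 836 to 2493 CPM in the Lin-named libraries and 5653 to 12142 CPM in the others, with all 7 lower and 2 called (Alpl and Ibsp). The B and plasma cell list summed to 305 to 913 CPM in the Lin-named libraries and 21.0 to 1053.5 CPM in the others, with all 4 tested markers higher and 2 called (Cd79a and Cd79b), and the erythroid list to 235544 to 593546 CPM in the Lin-named libraries and 27810 to 137315 CPM in the others, with all 7 higher and 1 called (Hbb-bt). The part of this cell mixture in the values of Lrp1, Mmp2 and Mmp14 was not tested.

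Around the 4 genes, 10 lists of the same pathway were described, with 78 further genes of which 76 were in the matrix and 67 were tested. Between fibrous and bone libraries 48 of the 67 had a positive log2 fold change (median 0.59), 0 were called and 5 had an unadjusted p under 0.05. Over all 13294 genes 51.9% were positive and the median was 0.03. Between Lin-named and other L002 libraries 16 of 67 were positive (median -1.98), 0 were called higher and 8 were called lower, or 11.9% beside 3.86% of all genes in either direction. On that contrast edgeR called 0 genes of any kind without bone 1, bone 3, fibrous 3 or fibrous 4, and 1 without bone 4. The lists were chosen after earlier results had shown stromal genes low in the Lin-named libraries, so these calls are a description. Between XY9274 and L002 libraries 30 were positive (median -0.16), and Sorl1, a sorting receptor of the LDL receptor family, was the one gene called, with a log2 fold change of 4.34 (SE 0.87, edgeR adjusted p = 0.0255).

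In the rest of the mannose receptor family, Mrc1 and Pla2r1 were low in both name series, at most 5.26 and 3.44 CPM. Ly75 was low in the L002 series and higher in the XY9274 series. Mrc1, the macrophage mannose receptor, averaged 0.760 ± 1.98 CPM in fibrous libraries (SD, n = 7) and 1.01 ± 1.64 CPM in bone libraries (SD, n = 6). Pla2r1, a receptor of secreted phospholipases, averaged 0.792 ± 1.26 CPM in fibrous libraries and 0.0531 ± 0.0954 CPM in bone libraries. Ly75, an endocytic receptor of dendritic and B cells, averaged 4.84 ± 8.40 CPM in fibrous libraries and 15.6 ± 32.9 CPM in bone libraries, with 82.5 CPM in bone 5. It stood at 8.23 to 82.5 CPM in the 4 XY9274 libraries and at 0 to 2.98 CPM in the 9 L002 libraries. All 3 were below the filter over the 13 libraries and were not tested there, so Mrc2 was the one family member tested. Bone 5 was also the library with the highest sum of the macrophage and monocyte list (1372 CPM) and of the B and plasma cell list (9258 CPM).

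Among the proteases, 5 of 8 tested metalloproteinases, Mmp2 and Mmp14 included, were positive between fibrous and bone libraries (median 1.09), and 0 were called. Mmp13, a secreted collagenase of osteoblasts and chondrocytes, averaged 476 ± 320.5 CPM in fibrous libraries and 246 ± 320.5 CPM in bone libraries, with a log2 fold change of 1.03 (SE 0.74). Mmp9 and Mmp8, which neutrophils carry in their granules, had log2 fold changes of -0.71 (SE 0.50) and -1.69 (SE 0.86). Mmp25, a membrane-anchored enzyme of leukocytes, averaged 8.22 ± 9.82 CPM in fibrous libraries and 21.6 ± 37.5 CPM in bone libraries. The neutrophil marker list summed to 623 to 22205 CPM in fibrous libraries and 1473 to 89186 CPM in bone libraries, and its part in these values was not tested.

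All 5 metalloproteinase inhibitors had a positive log2 fold change (median 1.06), and 0 were called. Timp2, the inhibitor that brings the Mmp2 proenzyme to Mmp14, averaged 212 ± 146 CPM in fibrous libraries and 87.1 ± 84.8 CPM in bone libraries, with a log2 fold change of 1.26 (SE 0.68). Per kilobase, Timp2 was 1.30 to 2.48 times Mmp14 in fibrous libraries (median 2.00) and 1.22 to 7.65 times in bone libraries (median 1.79). Timp1, a general inhibitor, had 1.06 (SE 0.50), Timp3, which stays bound to matrix, had 0.52 (SE 0.59), and Reck, a membrane-anchored inhibitor, had 0.50 (SE 0.50). Of the 5 genes for activation of the proenzymes, 3 were positive. Furin, the convertase that activates Mmp14, averaged 37.0 ± 19.7 CPM in fibrous libraries and 27.3 ± 19.4 CPM in bone libraries. Pcsk7, another convertase, averaged 24.8 ± 9.83 CPM in fibrous libraries and 33.6 ± 4.65 CPM in bone libraries. Cd44, a hyaluronan receptor that holds Mmp14 at the surface, averaged 88.4 ± 45.3 CPM in fibrous libraries and 132 ± 105 CPM in bone libraries. Pcsk6, a secreted convertase, averaged 19.5 ± 15.2 CPM in fibrous libraries and 17.0 ± 22.9 CPM in bone libraries.

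The urokinase system, which gave uPARAP its name, was little read at its centre. Plau, the urokinase gene, was at most 0.620 CPM in fibrous libraries and 0.450 CPM in bone libraries, and was not tested. Plaur, its receptor, averaged 38.4 ± 37.5 CPM in fibrous libraries and 131 ± 239.8 CPM in bone libraries, with a log2 fold change of -1.14 (SE 0.66) and 619 CPM in the highest bone library. Serpine2, a serpin that inhibits urokinase and thrombin, averaged 754 ± 711 CPM in fibrous libraries and 292 ± 333 CPM in bone libraries. Plat, the tissue plasminogen activator, averaged 12.7 ± 13.3 CPM in fibrous libraries and 1.04 ± 1.90 CPM in bone libraries, with a log2 fold change of 3.36 (SE 1.42). Serpinb2, an intracellular serpin, averaged 1.76 ± 3.50 CPM in fibrous libraries and 2.28 ± 3.11 CPM in bone libraries. None of the 5 tested genes of this list passed the threshold between fibrous and bone libraries.

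The substrate and the later steps were measured too. All 10 collagen chains had a positive log2 fold change between fibrous and bone libraries (median 0.96), and 0 were called. The number was 8 of 10 in L002 alone (median 0.55) and 10 of 10 in XY9274 alone (median 2.10). Marker lists of cells that make collagen had the same direction, with 7 of 7 marrow stromal (median 2.26), 7 of 7 osteoblast (median 0.88) and 5 of 5 chondrocyte markers (median 0.37, but 0 of 5 in L002 alone) positive and 0 called, and their part in the collagen, inhibitor and receptor lists was not tested. Col1a1 averaged 19439 ± 14714 CPM in fibrous libraries and 7402 ± 8436 CPM in bone libraries, with a log2 fold change of 1.36 (SE 0.90), and Col1a2, its partner chain, had 1.21 (SE 0.87). Col6a1 of beaded microfibrils had 0.79 (SE 1.07) and Col3a1 of soft tissue fibrils had 0.91 (SE 1.12). Of the 8 tested collagen-binding receptors, 7 were positive (median 0.75). In L002 alone 5 of 8 were positive (median 0.11), and in XY9274 alone 6 of 9 (median 0.81). Itgb1, the shared integrin chain, had 0.60 (SE 0.35), Itga11 of the fibroblast collagen integrin had 0.89 (SE 1.02), Ddr2, a collagen-activated kinase, had 1.09 (SE 1.07), and Mfge8, a bridging protein that can bind collagen, had 0.55 (SE 0.91).

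Between fibrous and bone over all 13 libraries, the lysosomal list had the median nearest 0 of the lists around the 4 genes. Of 9 tested, 5 were positive with a median of 0.04, and 0 were called. In L002 alone 5 of 9 were positive (median 0.14), and in XY9274 alone 2 of 9 (median -0.36). Within each series other lists had medians nearer 0. Ctsd, an aspartic protease, averaged 364 ± 28.0 CPM in fibrous libraries and 381 ± 58.0 CPM in bone libraries, and Lamp1, a membrane protein of lysosomes, averaged 415 ± 116 CPM in fibrous libraries and 399.8 ± 61.8 CPM in bone libraries. Ctsb, a cysteine protease, averaged 1589.6 ± 618 CPM in fibrous libraries and 1894 ± 1195 CPM in bone libraries. Ctsk, the collagen-degrading protease of osteoclasts and fibroblasts, averaged 61.9 ± 52.0 CPM in fibrous libraries and 50.2 ± 47.2 CPM in bone libraries.

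Of 12 tested chaperones, adaptors and ligands of Lrp1, 9 were positive (median 0.65), and of 8 tested LDL receptor family genes, Lrp1 included, 4 were positive (median 0.16), with 0 called in either list. Calr, which is also a surface partner of Lrp1, had -0.03 (SE 0.19), and Snx17, which recycles it, had 0.06 (SE 0.19). Apoe, a lipoprotein ligand, had 1.41 (SE 0.69), and Thbs1, a matrix ligand, had -0.33 (SE 0.86). In the receptor family, Sorl1 averaged 17.6 ± 25.3 CPM in fibrous libraries and 103 ± 205 CPM in bone libraries. Vldlr, a receptor of triglyceride-rich lipoproteins, had 0.91 (SE 0.96), and Lrp6, a Wnt co-receptor, had -0.13 (SE 0.33).

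The 8 list genes called lower in the Lin-named libraries had the same direction as Lrp1, and, as for all genes, 0 of these calls were kept without bone 1, bone 3, fibrous 3 or fibrous 4. Col1a1 fell by 3.89 and Col1a2 fell by 3.80 on the log2 scale (edgeR adjusted p = 0.0420 and 0.0401). Mmp13 fell by 3.35 and Serpine2 fell by 3.70 (both adjusted p = 0.0401), and Mfge8 fell by 3.21 (adjusted p = 0.0420). Thbs2, a ligand through which Lrp1 clears Mmp2, fell by 7.93, and Tgm2, a crosslinking enzyme that binds Lrp1, fell by 1.77 (both adjusted p = 0.0401). Pcsk6 fell by 8.37 (adjusted p = 0.0302). The 10 collagens had a median of -3.98, whereas the lysosomal list had a median of -0.21, with 5 of 9 negative and 0 called.

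**Figure D3:**
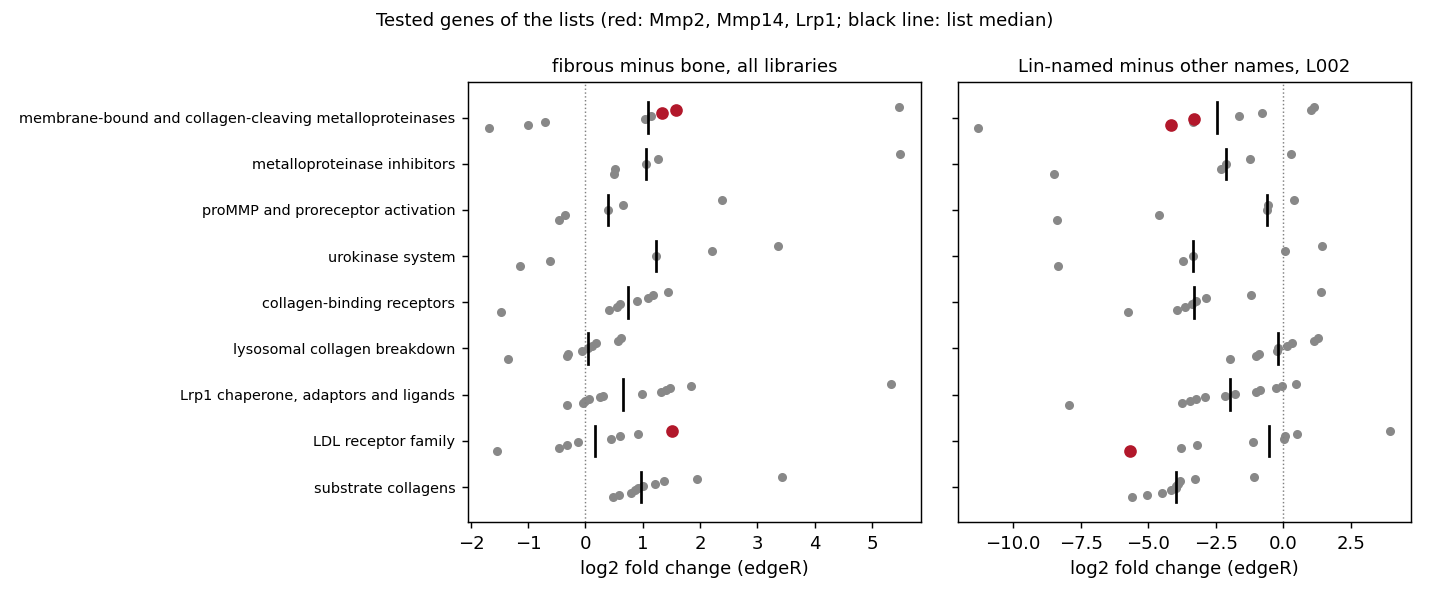
Log2 fold changes (edgeR) of the tested genes in 9 lists, fibrous minus bone over all libraries in the left panel and Lin-named minus other names within the L002 series in the right panel. Red points are Mmp2, Mmp14 and Lrp1 and black lines are list medians; the collagen list lies above 0 in the left panel and below 0 in the right one, and the lysosomal list is centred near 0 in both.

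Genes were ranked by how closely their levels followed Mrc2, as Pearson's r of log2(normalised CPM + 1) over the 13 libraries, among 9550 genes with a mean of at least 5 CPM. The libraries share tissue, name series and cell mixture, so r is a description. The closest was Lamb1, a laminin chain of basement membrane, with r = 0.97 over all libraries and 0.99 in the L002 series. It stood at 4.74 to 71.2 CPM in fibrous libraries and 0 to 6.73 CPM in bone libraries, with 0 to 0.502 CPM in the L002 bone libraries. The next were Steap4, a metalloreductase (r = 0.91), Adgrf5, an adhesion receptor (0.90), Nav1, a microtubule-associated protein (0.90), Ptprf, a receptor tyrosine phosphatase (0.89), Amigo2, an adhesion protein (0.88), Men1, which encodes menin (0.88), and Sufu, an inhibitor of Hedgehog signalling (0.87).

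The 8 genes did not all follow Mrc2 in every library. Steap4 had 0 reads in fibrous 5, where Mrc2 had 114 reads. Sufu stood at 8.49 to 31.8 CPM in fibrous libraries, at 29.5 and 34.6 CPM in the XY9274 bone libraries, and at 0.0788 to 0.290 CPM in the L002 bone libraries. Men1 was between 41.4 and 67.0 CPM in fibrous libraries and between 17.9 and 67.4 CPM in bone libraries.

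The partners of Mrc2 ranked far lower, Lrp1 at 278 (r = 0.68), Mmp14 at 596 (r = 0.62) and Mmp2 at 878 (r = 0.58). Among themselves Mmp2 and Mmp14 had r = 0.99, Mmp14 and Lrp1 had 0.79, and Mmp2 and Lrp1 had 0.72, over the same 13 libraries. Levels of Mmp2 and Mmp14 thus rose and fell together, though their ratio was not constant. Per kilobase, Mmp2 was 0.505 and 0.605 times Mmp14 in bone 3 and bone 4, and 2.27 to 4.48 times in fibrous libraries. Mrc2 parted from Mmp14 most clearly in bone 1 and bone 2, at 0.0140 and 0.182 reads per 100 Mmp14 reads. In bone 3 and bone 4 few reads of either gene limit that ratio. Among fibrous libraries it was 6.95 to 18.2 in L002 and 29.7 to 32.4 in XY9274.

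**Figure D4:**
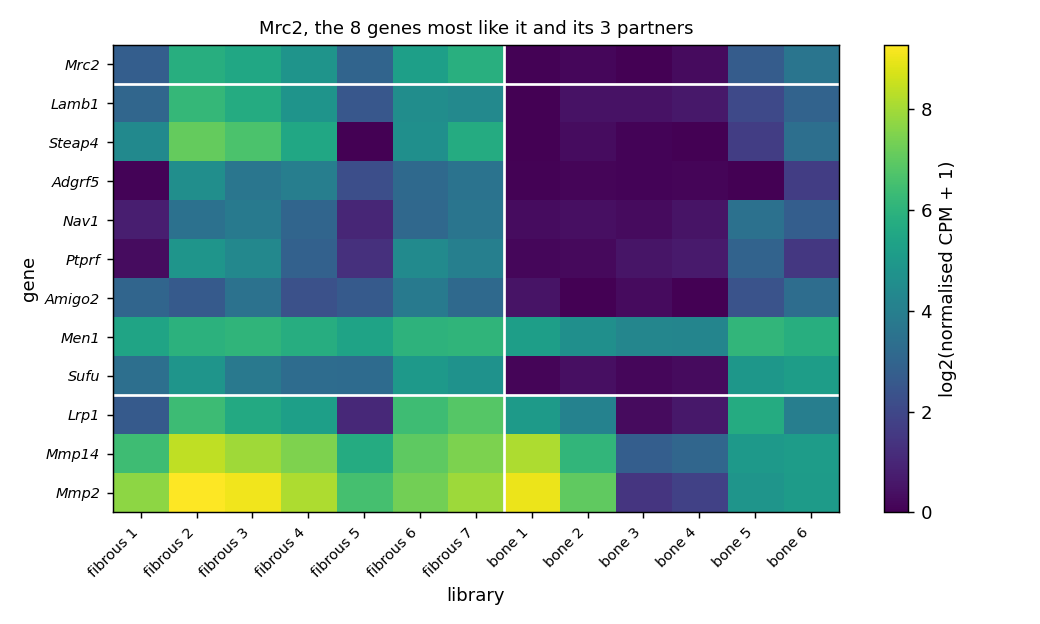
Levels as log2(normalised CPM + 1), by colour, of Mrc2 (top row), the 8 genes with the highest Pearson's r to it and its 3 partners, in fibrous libraries left of the white line and bone libraries right of it. Mrc2 and Lamb1 are near 0 in bone 1 to bone 4, where Mmp2 and Mmp14 are high in bone 1 and bone 2.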

How the data were processed

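The authors deposited one matrix of raw counts per gene for the 13 libraries, whole numbers for 23211 mouse Ensembl IDs, all of which matched a symbol. Per the labels' protocols, libraries were made with a TruSeq kit and sequenced on a NovaSeq instrument. Per the submitters' processing notes, edgeR, mm10 and hg38 were named, with no role. Aligner, counter and strand use: not given in the sources used here. The labels' cell type field gives the group, and library names give the name series. Columns matched the labels' names, and 0 per-sample columns were left unused.

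Genes were tested with edgeR 4.0.16 in R 4.3.3: TMM factors, filterByExpr on the groups, robust quasi-likelihood F test, name series and group as terms, Benjamini-Hochberg adjustment over all genes, threshold 0.05. The SE was obtained by dividing the log2 fold change by √F. Normalised CPM use the filtered library size times the TMM factor. DESeq2 1.42.0, limma 3.58.1 (voom with quality weights), other filters and left-out libraries were alternatives. Scripts were tested on simulated data. Lengths and coordinates came from GENCODE M21. The members and lists were chosen with earlier results of these data known. Named genes are the 4 members, up to 4 per list by mean CPM per kilobase, list genes past the threshold and the 8 most like Mrc2. Plg and Pzp were not analysed here. One gene that this rule names is not reported here.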

Additional observations from a re-analysis of the deposited data

How the results depend on the processing

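The 4 genes were chosen with the difference between fibrous and bone libraries known, and every alternative refits the same libraries or part of them. Its sign under the alternatives is therefore a description. The log2 fold change between fibrous and bone libraries was above 0 under all 24 alternatives for each of the 4 genes: 2.42 to 8.25 for Mrc2, 1.07 to 3.09 for Mmp2, 0.94 to 2.52 for Mmp14 and 1.13 to 2.35 for Lrp1. For Mrc2 it was 3.54 with group as the only term, 8.25 in L002 alone and 2.42 in XY9274 alone; the L002 value rests on bone libraries with 0 to 3 reads. The count of genes called was 0 by edgeR and 169 by DESeq2. Between Lin-named and other names the count was 493 by edgeR, 2999 by DESeq2, 52 without a filter, and 0 to 1198 with each library left out, 0 without bone 1 or 3 or fibrous 3 or 4 and 1198 without fibrous 1. On that contrast DESeq2 gave -4.25 for Mmp2 and -3.34 for Mmp14, both past the threshold, and Lrp1 without a filter gave -5.75 (adjusted p = 0.0517). With each library left out, values were -2.36 to 0.15 for Mrc2 (above 0 without fibrous 5), -7.25 to -3.39 for Mmp2, -4.69 to -2.58 for Mmp14 and -6.11 to -5.36 for Lrp1. Without fibrous 5, Mmp2 at -7.25 and Mmp14 at -4.69 passed (adjusted p = 0.0263 and 0.0404), as did Mmp14 at -3.57 without fibrous 1. Between XY9274 and L002 the count was 287 by edgeR, 1982 by DESeq2 and 87 to 470 with each library left out, lowest without fibrous 6 and highest without bone 1; Mrc2 by DESeq2 was 4.38, and without the Lin-named libraries it was 2.88. For the interaction DESeq2 called 25 genes and gave -5.90 for Mrc2. Of the 8 genes most like Mrc2, 4 were also among the first 8 in L002 alone and 4 by Spearman's rho. The causes of these shifts were not tested. Replicate numbers follow accession order and pair no libraries between tissues. Within L002, bone 2 and 4 share a name token, as do fibrous 2 and 5, and each such pair may come from the same animal, which the labels do not say. With these tokens as a replicate block, chosen after seeing the data, the Lin contrast called 662 genes, and values were -1.69 for Mrc2, -5.46 for Mmp2, -3.74 for Mmp14 (adjusted p = 0.0430, past the threshold) and -6.11 for Lrp1. Depth limits Mrc2 in the L002 bone libraries, where 6 reads in all were counted.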
